A study of Homo sapiens with 4 samples.

Results

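Elastic fibre and lysyl oxidase genes were followed in MRC5, a cell line of fibroblasts from human fetal lung, as 10 genes taken by symbol from the 26255 genes measured: ELN, FBN1, FBN2, FBLN1, FBLN5, LOX, LOXL1, LOXL2, LOXL4 and MFAP5. Messenger RNA was sequenced in 4 libraries of the same wild-type line, 2 whose label gives none as the treatment (control) and 2 whose label gives miRs, that is microRNAs, all with 48 h in their titles. The labels name neither the microRNAs nor their dose. The series title speaks of a negative-control microRNA, so whether the control cells received one is not settled by the labels. Nothing in the labels says that the 2 replicates of a group came from separate cultures, and all cells are 1 line, so a p-value reflects only how far these libraries spread, and that spread may be technical.

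Elastic fibres give lung its recoil. They have a core of elastin, laid down as soluble tropoelastin on a scaffold of microfibrils, which are built from fibrillins and decorated by microfibril-associated proteins. Fibulins bring tropoelastin, fibrillin and the cross-linking enzymes together, and the copper-dependent lysyl oxidases join elastin and collagen chains by oxidising their lysines. Lung fibroblasts are among the cells that make all of these parts, most of them during development.

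MicroRNAs act mainly by pairing of bases 2 to 8 (the seed) with the 3′ end region of a messenger RNA that follows the stop codon, the 3′ UTR. The 4 families shown here were chosen for what is known of them, with earlier results of these data also known. The miR-29 family is known for elastin, fibrillin and collagen messages, and the miR-200 families and miR-302 for epithelial and pluripotent cells. The labels do not say whether any of them was given. The mature sequences (RefSeq, GRCh38.p14) are shown with the seed in capitals, because the matches below are read against them.
hsa-miR-29a-3p: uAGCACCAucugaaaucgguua
hsa-miR-200c-3p: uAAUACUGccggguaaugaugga
hsa-miR-141-3p: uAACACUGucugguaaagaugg
hsa-miR-302a-3p: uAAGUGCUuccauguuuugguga

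In the longest 3′ UTR that GENCODE 29 (GRCh38) gives for each gene, the transcript strand was searched for the 7-mer complementary to each seed. TGGTGCT (miR-29) was in 4 of the 10 members (ELN, LOX, LOXL2 and LOXL4) and in 17.0% of the 10802 tested genes with a 3′ UTR. CAGTATT (miR-200b/c) was in 4 (FBN1, FBN2, LOX and MFAP5) against 19.5%, CAGTGTT (miR-141/200a) in 3 (FBLN5, LOX and LOXL1) against 21.9%, and AGCACTT (miR-302) in 2 (FBN1 and MFAP5) against 25.4%. With any annotated 3′ UTR, FBN1 also held a miR-29 match and FBLN1 a miR-302 match. The 3′ UTRs differ in length, from 300 bases in LOXL1 to 3613 in FBN1 and 3548 in LOX, where the median of the tested genes was 1392, and a longer one holds more 7-mers of any kind. Only the sites of the 4 members whose groups did not overlap are shown, a choice made by the measured differences. The matching 7-mer is in capitals, and the position is counted from the first base after the stop codon.
ELN, miR-29, bases 38 to 44 (chr7:74068738-74068744, plus strand): gacctcatcaacgtTGGTGCTactgcttg
ELN, miR-29, bases 297 to 303 (chr7:74068997-74069003, plus strand): tctccaggggaactTGGTGCTacacgctg
ELN, miR-29, bases 310 to 316 (chr7:74069010-74069016, plus strand): ttggtgctacacgcTGGTGCTcttatctt
FBN2, miR-200b/c, bases 1375 to 1381 (chr5:128258074-128258080, minus strand): taaccagttataccCAGTATTttgaggtt
FBLN5, miR-141/200a, bases 712 to 718 (chr14:91869506-91869512, minus strand): tctccattttagccCAGTGTTttctttga
LOXL1, miR-141/200a, bases 200 to 206 (chr15:73952037-73952043, plus strand): ttcacttttctctaCAGTGTTgttttgtt
These matches are descriptions of sequence. ELN, with 3 miR-29 matches and none of the other 7-mers, was the member with both miRs libraries above both controls. FBN2, FBLN5 and LOXL1, with 1 match each to a miR-200 family, had both below. LOXL2 and LOXL4, with 1 miR-29 match each, had lower means with miRs, and their groups overlapped. Whether a match bears on a level was not tested. FBN1, with 2 matches to miR-200b/c and 1 to miR-302, was not lower, and its groups overlapped. LOX held 7 matches in all, 3 to miR-29, 3 to miR-200b/c and 1 to miR-141/200a, and its groups overlapped, as described below.

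Levels are given in FPKM, sequenced fragments divided by transcript length and library total, which can be compared between genes because they are per length. How many reads each library holds is unknown. Between 11622 and 11781 genes reached 1 FPKM in each library. The miRs libraries lay farther apart than the controls, with 725 tested genes over 2-fold apart against 71. All 11 fibroblast markers looked up (COL1A1, COL1A2, COL3A1, VIM, THY1, PDGFRA, PDGFRB, DCN, LUM, S100A4 and FAP) were above 1 FPKM, and none of the 7 blood markers was. In bulk RNA, fewer cells that make a message and less of it per cell cannot be told apart.

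The miRs libraries were compared with the controls to ask which messages differ after the treatment. Elastin was higher in miRs and fibrillin-2 and fibulin-5 lower, while fibrillin-1, fibulin-1 and 3 of the 4 lysyl oxidases among the members had groups that overlapped. Of the 10 members 9 reached a mean of 1 FPKM and were tested with limma over 11860 genes. At an adjusted p of 0.05, 0 of the 9 passed, where 0.245% of all tested genes did. At an unadjusted p under 0.05 there were 3 members: ELN in the higher direction, against 11.2% of all tested genes, and FBN2 and FBLN5 in the lower direction, against 13.0%. Both miRs libraries lay above both controls in 1 member, against 29.5% of all tested genes, and below both in 3, against 30.0%. The median log2 difference over the 9 was −0.27, beside 0.00 over all tested genes (medians, with no test), and −0.06 without miRs replicate 1. The count of calls turned on the miRs libraries: without miRs replicate 1 it was 2 of 9 (ELN and FBN2) and without miRs replicate 2 it was 4 of 9 (ELN, FBN2, FBLN1 and FBLN5). In these fits 1653 and 3746 of all tested genes passed, and the lone miRs library was assumed to vary like the controls.

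**Figure D1:**
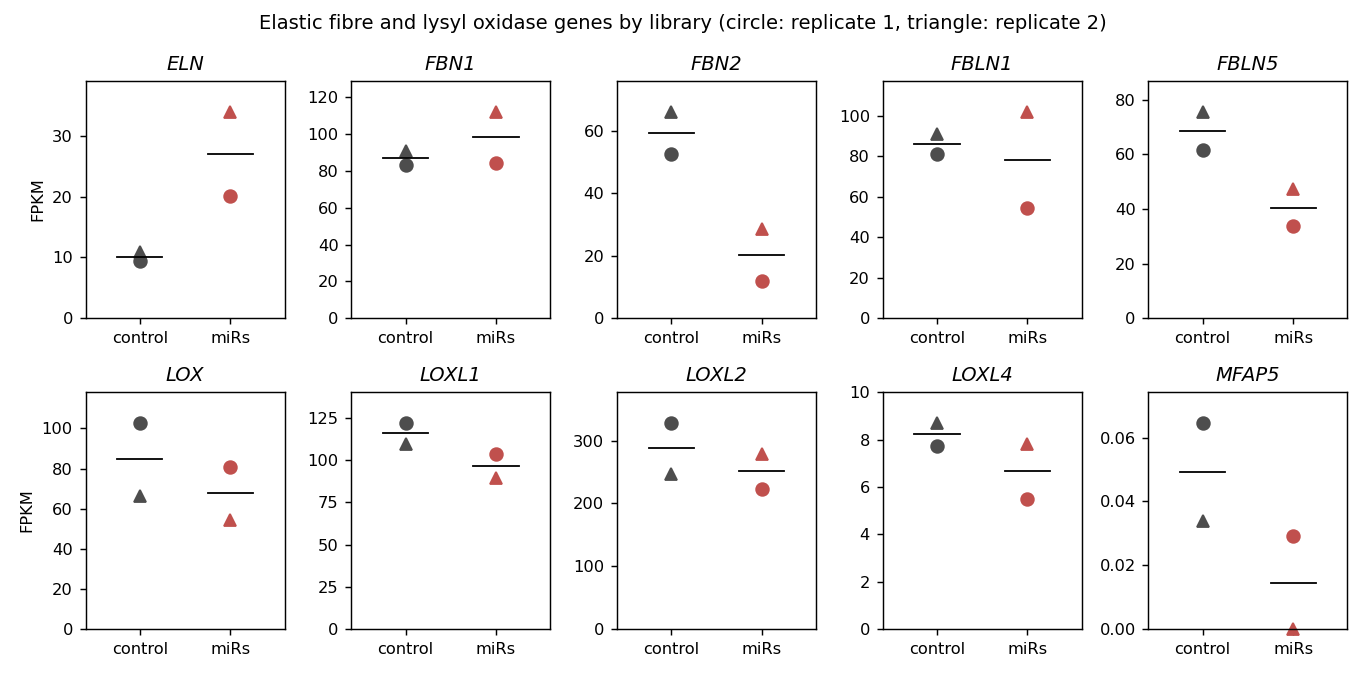
FPKM of each of the 10 genes (vertical axis, from 0, a scale of its own per gene) in control and miRs libraries; circles are replicate 1, triangles replicate 2 and lines the mean of the 2. The ELN points of miRs, at 20.1 and 33.9 FPKM, lie above both controls, and those of FBN2, at 11.8 and 28.5 FPKM, below both.

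ELN encodes tropoelastin, the monomer of elastin. Its level was 9.39 and 10.9 FPKM in the controls, replicates 1 and 2, against 20.1 and 33.9 FPKM in the miRs replicates 1 and 2. Both miRs libraries were higher than both controls, and the lower of them was 1.86 times the higher control. The means were 10.1 ± 1.03 against 27.0 ± 9.73 FPKM (SD, n = 2 each), 2.67-fold higher with miRs. The difference was 1.29 ± 0.27 (SE) on the log2(FPKM + 1) scale, with a 95% interval of 0.57 to 2.02 and an adjusted p of 0.0975 in limma, so ELN missed the threshold. Of all tested genes 97.7% had a lower log2 difference. The ELN difference ran from 0.93 without miRs replicate 2 to 1.65 without miRs replicate 1.

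The fibrillins make up the microfibril scaffold; FBN1 is the main one after birth and FBN2 that of developing tissue. FBN2 stood at 52.7 and 66.1 FPKM in the controls, against 11.8 and 28.5 FPKM with miRs. Both miRs libraries lay below both controls, with a 2.41-fold gap between them. The means were 59.4 ± 9.48 against 20.2 ± 11.8 FPKM (SD, n = 2 each), 2.94-fold higher in control. The log2 difference was −1.62 ± 0.43 (SE) in log2, with a 95% interval of −2.75 to −0.50 and an adjusted p of 0.127 in limma. Only 0.658% of all tested genes had a more negative one. FBN2 passed without miRs replicate 1 (−1.02, adjusted p = 0.0344 in limma) and without miRs replicate 2 (−2.23, adjusted p = 0.00588 in limma).

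FBN1 stood at 83.4 and 91.0 FPKM in the controls, against 84.6 and 112 FPKM with miRs. The groups overlapped, with miRs replicate 1 between the controls. In log2 the difference was 0.16 ± 0.18 (SE), with a 95% interval of −0.32 to 0.64 (adjusted p = 0.620 in limma), and −0.042 without miRs replicate 2. FBN3, the remaining fibrillin gene, was listed at 0 in all 4 libraries. FBN2 thus made up 38.7% and 42.1% of fibrillin FPKM in the controls and 12.3% and 20.3% in miRs replicates 1 and 2, a difference of −24.1 percentage points between the means. A share within a library does not depend on how libraries were scaled. The groups did not overlap, and an exact permutation test (2-sided) gave p = 0.333, the smallest that 2 libraries against 2 can give. No exact permutation test of this size can pass 0.05.

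MFAP5 is a small microfibril-associated glycoprotein. It was close to undetected, at 0.0647 and 0.0340 FPKM in the controls, at 0.0291 FPKM in miRs replicate 1 and listed at 0 in miRs replicate 2. After correction for the relative worth of a fragment in each library, read from steps between low values, these values stood as 2, 1, 1 and 0, so they may rest on as few as 3 fragments in 1 group and 1 in the other. MFAP5 was not tested and no fold is given. MFAP2, a relative chosen for naming once its values were known, stood at 21.2 and 23.6 FPKM in the controls, against 27.1 and 19.2 FPKM with miRs, so the miRs libraries lay on either side of the controls.

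Fibulin-5 (FBLN5) binds tropoelastin and LOXL1 and is needed for normal elastic fibres, while fibulin-1 (FBLN1) lies in elastic fibres and basement membranes. FBLN5 stood at 61.7 and 75.5 FPKM in the controls, against 33.9 and 47.1 FPKM with miRs. Both miRs libraries were below both controls, and the lower control was 1.31 times the higher miRs library. The means were 68.6 ± 9.78 against 40.5 ± 9.39 FPKM (SD, n = 2 each), 1.69-fold higher in control. The log2 difference was −0.76 ± 0.22 (SE), with a 95% interval of −1.33 to −0.19 and an adjusted p of 0.140 in limma. Without miRs replicate 2 it was −0.99, and without miRs replicate 1 it was −0.52.

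FBLN1 stood at 80.9 and 90.9 FPKM in the controls, against 54.4 and 102 FPKM with miRs. The miRs libraries lay on either side of the controls, 1.87-fold apart. The log2 difference was −0.20 ± 0.32 (SE), with a 95% interval of −1.05 to 0.65 (adjusted p = 0.727 in limma). Its direction depended on the miRs library, at 0.24 without miRs replicate 1 and −0.65 without miRs replicate 2.

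The other fibulins were read from a list of 6 genes, 5 of them tested, of which 5 had a lower mean log2 level in miRs, 4 with groups that did not overlap (30.0% of all tested genes were lower in this way), and 0 passed in limma. Their median log2 difference was −0.46, and it ran from −0.81 without miRs replicate 2 to −0.23 without miRs replicate 1. EFEMP2 (fibulin-4), which helps lysyl oxidase bind tropoelastin, stood at 220 and 205 FPKM in the controls, against 116 and 140 FPKM with miRs (−0.73 in log2, limma adjusted p = 0.0940). EFEMP1 (fibulin-3) was at 140 and 126 against 89.3 and 116 FPKM. HMCN1, a very large matrix protein related to fibulins, was at 1.47 and 1.26 against 0.348 and 1.01 FPKM, and FBLN7 at 1.76 and 1.85 against 1.13 and 1.34 FPKM. Among the fibulins FBLN5 took 11.8% and 14.5% of the family's FPKM in the controls and 11.1% and 11.0% in miRs. These shares did not overlap, with a difference of −2.07 percentage points between the means. The family's sum was also lower, at 521 and 522 FPKM in the controls and 305 and 427 FPKM in miRs. The shares of FBLN1 and EFEMP1 were higher without overlap and that of EFEMP2 lower, while those of FBLN2 and FBLN7 overlapped.

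**Figure D2:**
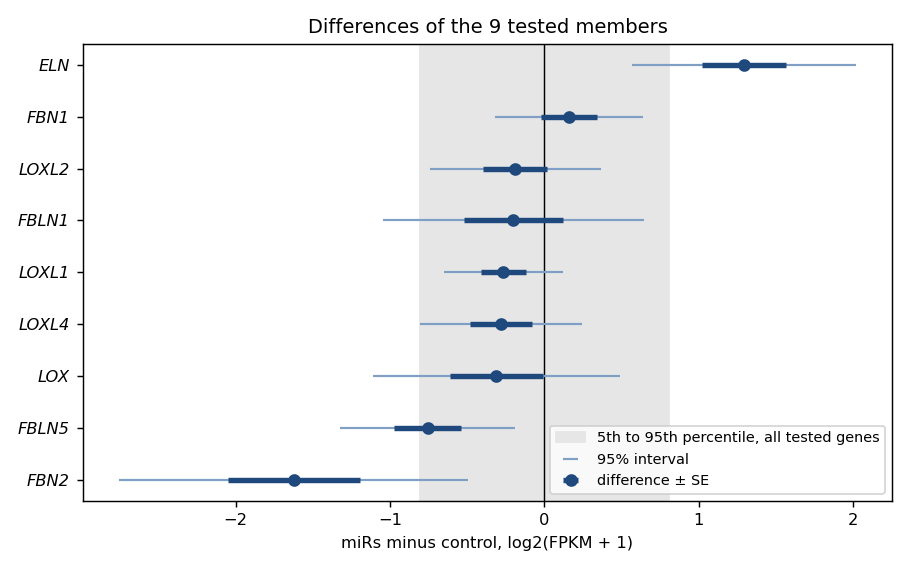
Difference between miRs and control on the log2(FPKM + 1) scale (horizontal axis) for the 9 tested members; thick bars are ± SE, thin lines the 95% interval, and the grey band the 5th to 95th percentile of all tested genes. ELN at 1.29 and FBN2 at −1.62 lie outside the band, and the intervals of ELN, FBLN5 and FBN2 do not include 0.

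None of the lysyl oxidases among the members had a 95% interval that left out 0. LOX, the founding enzyme, which acts on collagen and elastin, stood at 103 and 66.2 FPKM in the controls, against 80.9 and 54.3 FPKM with miRs. The gap between the controls, 1.55-fold, was larger than the 1.25-fold gap between the group means. The log2 difference was −0.31 ± 0.30 (SE), with a 95% interval of −1.11 to 0.49 (adjusted p = 0.563 in limma), and without control replicate 1 it was 0.0031. SRFBP1, which overlaps LOX on the other strand, stood at 3.59 and 3.73 FPKM in the controls and 7.48 and 4.64 FPKM with miRs, and its reads cannot be told from those of LOX with certainty.

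LOXL1, the family member most tied to elastin upkeep, stood at 122 and 110 FPKM in the controls, against 104 and 89.2 FPKM with miRs. Both miRs libraries were below both controls, but the nearest values were only 1.06-fold apart. In log2 the difference was −0.27 ± 0.15 (SE), with a 95% interval of −0.65 to 0.12 (adjusted p = 0.331 in limma), and −0.16 without miRs replicate 2. An antisense gene, LOXL1-AS1, overlaps LOXL1 and was at 5.95 to 7.98 FPKM. Since the strand setting of the counting is not given, reads of the pair cannot be told apart with certainty.

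LOXL2, known for cross-linking collagen IV of basement membranes, had the highest level of all members, with 329 and 246 FPKM in the controls against 223 and 279 FPKM with miRs. The groups overlapped. In log2 the difference was −0.19 ± 0.21 (SE), with a 95% interval of −0.74 to 0.36 (adjusted p = 0.610 in limma), and 0.017 without control replicate 1. ENTPD4, a neighbour on the same strand whose annotation overlaps LOXL2, was at 18.7 and 20.3 against 8.41 and 10.6 FPKM, far below LOXL2. LOXL4 was the lowest of the oxidases, at 7.72 and 8.71 FPKM in the controls and 5.49 and 7.83 FPKM in miRs, with miRs replicate 2 between the controls (log2 difference −0.28 ± 0.20, 95% interval −0.81 to 0.24, adjusted p = 0.429 in limma). Leaving out miRs replicate 1 gave −0.06, and leaving out miRs replicate 2 gave −0.50.

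LOXL3, the remaining enzyme of the family and no member, stood at 16.2 and 17.8 FPKM in the controls, against 11.9 and 8.48 FPKM with miRs (−0.70 in log2, limma adjusted p = 0.137). Summed over the 5 oxidases, FPKM was 578 and 449 in the controls and 424 and 439 in miRs. LOXL2 took 56.9% and 54.9% of that sum in the controls and 52.4% and 63.6% in miRs, and LOX 17.8% and 14.7% against 19.1% and 12.4%. For each of the 5 enzymes the shares of the groups overlapped.

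**Figure D3:**
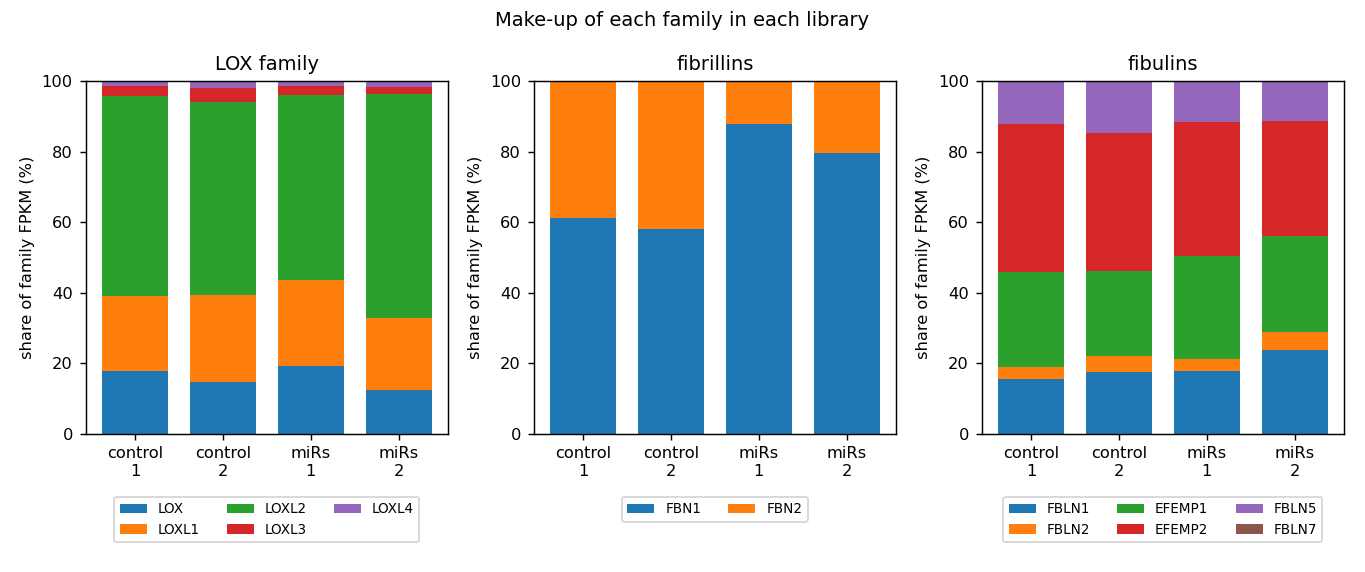
Share of each gene in the summed FPKM of its family (vertical axis, percent) in each library, for the lysyl oxidases, the fibrillins and the fibulins. FBN2 takes 38.7% and 42.1% of fibrillin FPKM in the controls and 12.3% and 20.3% in miRs, while LOXL2 takes 52.4% to 63.6% of the oxidases in every library.

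The order of the levels shifted with ELN and FBN2. In the controls LOXL2 was highest by mean FPKM, followed by LOXL1, FBN1, FBLN1, LOX, FBLN5, FBN2, ELN, LOXL4 and MFAP5. Neighbours from FBN1 down to FBN2 had ranges that overlapped, so their order is not resolved. In miRs the order was LOXL2, FBN1, LOXL1, FBLN1, LOX, FBLN5, ELN, FBN2, LOXL4 and MFAP5. FBN1 to LOX overlapped neighbour by neighbour, as did FBLN5, ELN and FBN2. Elastin and fibrillin-2 were apart in the controls, at 10.1 and 59.4 FPKM on average. In miRs their ranges overlapped, but within each library ELN was above FBN2, at 20.1 against 11.8 and 33.9 against 28.5 FPKM.

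Ratios between members within a library, formed after the values were seen, are free of scaling. ELN stood at 0.178 and 0.164 times FBN2 in control replicates 1 and 2 and at 1.70 and 1.19 times in miRs replicates 1 and 2. Against FBN1 it stood at 0.113 and 0.119 in control and 0.238 and 0.303 in miRs, and against FBLN5 at 0.152 and 0.144 in control and 0.595 and 0.719 in miRs. In all 3 ratios both miRs libraries lay above both controls. For FBN2 and FBLN5 this follows from levels already apart in opposite directions, so it adds no support. LOX to LOXL2, at 0.313 and 0.268 in control and 0.364 and 0.194 in miRs, did not separate the groups. LOXL1 to LOXL2, at 0.372 and 0.445 in control and 0.466 and 0.319 in miRs, did not either. FBN2 to FBN1, at 0.632 and 0.726 in control and 0.140 and 0.255 in miRs, did. With FBN3 at 0 this restates FBN2's share of fibrillin FPKM. ELN to LOXL1 also separated the groups, which again follows from levels apart in opposite directions. Neither ratio adds support.

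Other microfibril genes were read from a list that also holds the latent TGF-beta binding proteins (LTBPs), which sit on microfibrils, and fibrillin-binding ADAMTS-like proteins. Of 22 genes in the files 14 were tested. Of these, 9 had both miRs values below both control values and 2 above, against 30.0% and 29.5% of all tested genes. At an unadjusted p under 0.05, 5 were lower, against 13.0% of all tested genes, and 0 passed in limma. Over the 14 the median difference was −0.39 in log2. LTBP2, which binds fibulin-5, stood at 96.6 and 129 FPKM in the controls, against 35.4 and 54.3 FPKM with miRs (−1.33 in log2, limma adjusted p = 0.0937). LTBP4, needed for elastin assembly with fibulin-5, was at 32.8 and 36.9 against 14.8 and 19.9 FPKM (−0.98, adjusted p = 0.0891 in limma). LTBP3 was at 24.5 and 21.9 against 12.5 and 12.4 FPKM (−0.84, adjusted p = 0.0769 in limma), and THSD4, also called ADAMTSL6, which promotes assembly of fibrillin-1 microfibrils, at 31.1 and 31.9 against 11.0 and 14.1 FPKM (−1.27, adjusted p = 0.0656 in limma). Each of the 4 had groups that did not overlap. LTBP1, the remaining LTBP, named after its values were seen, had groups that overlapped. It stood at 197 and 146 FPKM in the controls, against 172 and 155 FPKM with miRs (−0.056 in log2, limma adjusted p = 0.875). Without 1 library the difference ran from −1.63 to −1.03 for LTBP2 and from −1.18 to −0.78 for LTBP4. It ran from −0.92 to −0.77 for LTBP3 and from −1.43 to −1.11 for THSD4.

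Partners of the oxidases (copper carriers, pro-enzyme proteases, matrix anchors and the elastin-binding protein complex) with LOXL3 numbered 17 genes, 12 of them tested, whose median log2 difference was −0.23 (−0.022 without miRs replicate 1, −0.13 without control replicate 2 and −0.46 without miRs replicate 2). Of these, 4 were lower and 3 higher with groups that did not overlap, against 30.0% and 29.5% of all tested genes, and 0 passed in limma. NEU1, the sialidase of the elastin receptor complex, stood at 18.2 and 17.6 FPKM in the controls, against 39.3 and 30.2 FPKM with miRs (0.90 in log2, limma adjusted p = 0.0889). SLC31A1, a copper importer, was at 11.8 and 11.0 against 15.1 and 16.2 FPKM, and FKBP10, a chaperone of collagen and tropoelastin, at 268 and 248 against 158 and 193 FPKM. The genes of this list thus lay in both directions. The log2 difference of NEU1 ran from 0.72 to 1.09 without 1 library.

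Enzymes that cut elastic fibres, with their inhibitors, had 9 tested of 20 genes and a median log2 difference of −0.43 (−0.12 without control replicate 1 and −0.25 without miRs replicate 1). Of these, 4 were lower and 3 higher (CTSL, TIMP3 and CTSK) with groups that did not overlap, against 30.0% and 29.5% of all tested genes, and 0 passed in limma. TIMP2, an inhibitor of metalloproteinases, stood at 321 and 315 FPKM in the controls, against 94.97 and 60.7 FPKM with miRs (−2.05 in log2, limma adjusted p = 0.0632). TIMP1 was at 1802 and 1199 against 1088 and 681 FPKM, the gelatinase MMP2 at 228 and 230 against 122 and 192 FPKM, and the lysosomal protease CTSB at 351 and 332 against 249 and 259 FPKM. CTSL, a protease able to degrade elastin, lay the other way at 80.5 and 80.9 against 176 and 96.7 FPKM, as did TIMP3 at 55.1 and 55.5 against 88.1 and 59.3 FPKM. CTSK, named only to complete that count, was at 7.92 and 11.2 against 12.5 and 11.2 FPKM, with nearest values that are alike once rounded. MMP14 had a higher mean with miRs, at 207 and 185 against 262 and 194 FPKM, but its groups overlapped and its log2 difference was −0.012 without miRs replicate 1. With no minimum FPKM the list's median was 0.064 over 17 genes. Without 1 library the log2 difference of TIMP2 ran from −2.37 to −1.73.

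**Figure D4:**
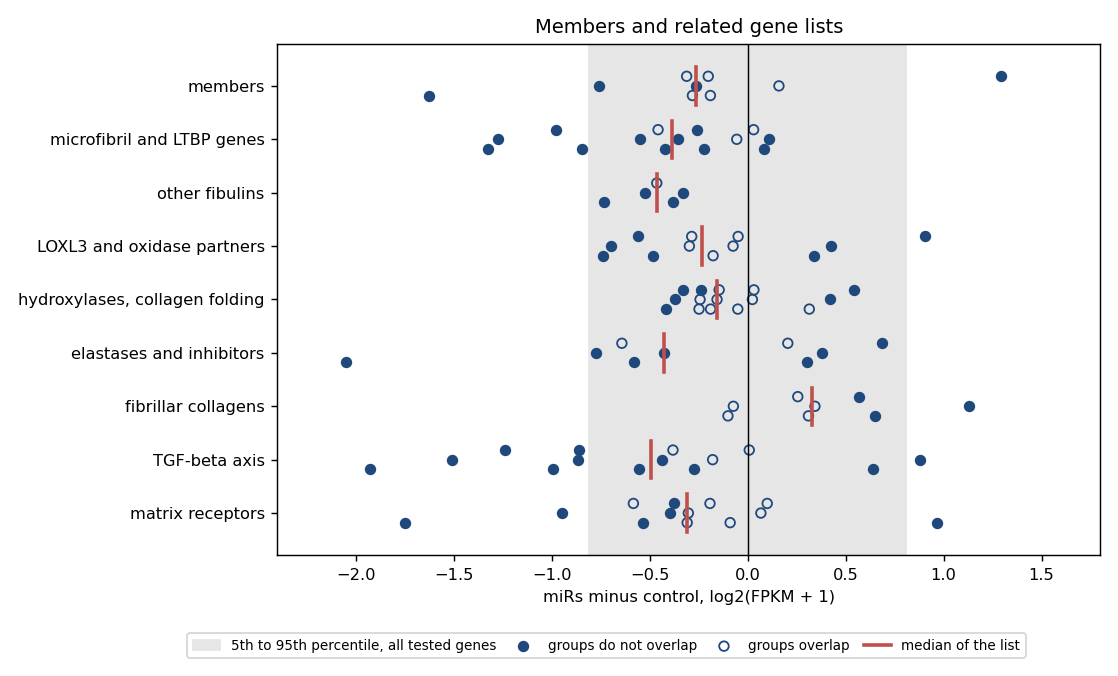
Difference between miRs and control on the log2(FPKM + 1) scale (horizontal axis) for each tested gene of the members and of 8 related lists; filled points have groups that do not overlap, red lines are medians and the grey band is the 5th to 95th percentile of all tested genes. Medians run from −0.49 in the TGF-beta list to 0.33 in the fibrillar collagens, with the members at −0.27.

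TGF-beta raises elastin, fibrillin and lysyl oxidase messages in fibroblasts, and fibrillin microfibrils hold its latent form. Of 14 tested genes of that pathway 9 were lower and 2 higher in miRs with groups that did not overlap, against 30.0% and 29.5% of all tested genes. At an unadjusted p under 0.05, 7 were lower and 2 higher, against 13.0% and 11.2% of all tested genes, and 0 passed in limma. Over the 14 the median difference was −0.49 in log2 (−0.91 when miRs replicate 2 was left out). TGFBR2, the type II receptor, stood at 55.1 and 54.6 FPKM in the controls, against 25.1 and 20.4 FPKM with miRs (−1.24 in log2, limma adjusted p = 0.0632). The co-receptor TGFBR3 was higher in miRs, at 3.12 and 3.83 against 7.49 and 6.92 FPKM. ACTA2 and TAGLN, contractile genes that respond to TGF-beta, were at 582 and 367 against 127 and 115 FPKM and at 2715 and 1961 against 1197 and 1117 FPKM. ACTA2 has close paralogs, so its level is uncertain. Without 1 library the log2 difference ran from −1.38 to −1.10 for TGFBR2, from 0.76 to 0.99 for TGFBR3 and from −2.26 to −1.60 for ACTA2.

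Receptors that bind elastin, fibrillin or their partners had 13 tested of 16 genes, with a median log2 difference of −0.31 (−0.096 without miRs replicate 1 and −0.49 without miRs replicate 2). Of these, 5 were lower and 1 higher with groups that did not overlap, against 30.0% and 29.5% of all tested genes, and 0 passed in limma. The integrin subunits ITGB3 and ITGAV, which pair in a receptor for fibrillin-1, were at 8.61 and 6.27 against 2.28 and 0.880 FPKM and at 31.1 and 26.9 against 9.72 and 21.4 FPKM. ITGB1 was at 1159 and 991 against 764 and 891 FPKM. ITGA5, the fibronectin receptor subunit, was the higher one, at 197 and 154 against 462 and 253 FPKM. The log2 difference of ITGB3 ran from −2.15 to −1.35 without 1 library.

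The members' values moved beside other differences between the libraries. Of the 9 tested members 7 were higher in miRs replicate 2 than in miRs replicate 1, all but LOX and LOXL1, where 48.8% of all tested genes were. The summed FPKM of the 11 fibroblast markers was 9999 and 10143 in the controls and 6744 and 11629 in miRs replicates 1 and 2. The sum hides differences within the list, since VIM, THY1, DCN, LUM and FAP had both miRs values below both controls and S100A4 had both above. DCN, for example, stood at 963 and 1223 FPKM in the controls, against 352 and 419 FPKM with miRs, and THY1 at 406 and 335 against 188 and 175 FPKM. The summed FPKM of 16 interferon-response genes, which are switched on by foreign RNA among other signals, was 110 and 132 in the controls and 11317 and 2262 in miRs, with median log2 differences from the control mean of 7.13 and 4.31. Of the 7 smooth muscle markers 6 were above 1 FPKM in at least 1 library, and MYH11 was not. They summed to 3440 and 2433 against 1346 and 1262 FPKM, most of it TAGLN and ACTA2. DES in that list lay the other way, at 0.361 and 0.590 against 7.90 and 2.18 FPKM. Of the 10 epithelial markers 6 were above 1 FPKM in at least 1 library, but EPCAM, CLDN4 and CLDN7 were below it in both controls. The defining gene CDH1 was at 0 in 3 of the 4 libraries. The 10 markers summed to 29.9 and 32.1 against 198 and 267 FPKM. Endothelial (12.8 to 20.9), chondrocyte (15.2 to 26.2), adipocyte (0.756 to 3.34) and blood markers (0.0619 to 0.271) stayed low in summed FPKM in all libraries. The part of these differences in the members' values was not tested.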

How the data were processed

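Each library's deposited file lists FPKM by gene symbol, values the authors made, per the file headers. Per the labels' protocols, total RNA (RNeasy) went into stranded TruSeq libraries for messenger RNA. The submitters' processing notes name Cuffdiff 2.2.1, TopHat2 2.1.1, SAMtools 0.1.18, Bowtie2 2.2.8 and hg19. Not given in the sources used here are the annotation, the strand setting and the scaling between libraries. FPKM is not a count, so no count test was run, and depth is unknown: precision comes from 2 libraries a group (2 residual degrees of freedom). Groups were taken from the treatment label.

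Where the mean of the 4 libraries reached 1 FPKM, a gene was fitted on log2(FPKM + 1) with limma 3.58.1 (R 4.3.3), 2-sided, with a variance trend and Benjamini-Hochberg adjustment over all 11860 genes at 0.05. Such differences understate the change of low genes. When the comparison of miRs with control was tested on simulated data (11518 genes), calls were made for 5 of 100 genes with a log2 change of 1, for 82 of 100 with a log2 change of 2 and for 7 of 11318 without a change. The simulation gave both groups the same variance and changed only genes of higher level. The real miRs libraries lay farther apart than the controls, so these rates may not hold here. Members, lists and seed families were chosen with earlier results of these data known. The text names all members and, per list, up to 4 genes with the smallest p plus any whose mean reaches 50 FPKM and whose sign is not that of most of its list. The 3′ UTRs (at least 20 bases) were matched by symbol for 91.1% of tested genes. Those coordinates are GRCh38, whereas the authors' build is hg19. Relative fragment worth came from ratios of values under 0.3 FPKM. Alternatives were pseudocount, minimum FPKM, scaling, variance trend, replicate block and each library left out. Python 3.11.15 was used for the rest.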

Additional observations from a re-analysis of the deposited data

How the results depend on the processing

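Over all tested genes 29 passed in limma. The count was 0 with no minimum FPKM, 6 with quantile normalization, 99 with the replicate block and between 0 and 3746 when 1 library was left out. The members' count of 0 stayed 0 in every alternative but the left-out miRs libraries (0 to 4 over the libraries left out). Members lower without overlap numbered 4 to 6 (3 with all libraries), and higher ones 1 to 3, when 1 library was left out. Groups separate more easily in any gene when 1 of them holds a single library. The shares over all tested genes given above hold for all libraries only, so the rise in these counts cannot be judged. The members' median log2 difference ran from −0.35 to −0.06 without 1 library and kept its sign in all alternatives. The replicate numbers rest on the titles alone: replicate 1 minus 2 correlated at 0.20 across genes between the groups, and the block called none of the members but called TIMP2 and ACTA2. It gave 1 call each in the elastase and TGF-beta lists.

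The microfibril list's median was −0.42 with a pseudocount of 0.1, −0.24 with no minimum and −0.42 with a minimum mean of 5 FPKM, and −0.43 to −0.34 without 1 library. That of the elastase list was 0.064 with no minimum and −0.47 to −0.12 without 1 library, and that of the TGF-beta list −0.91 to −0.40. Counts of calls without 1 library come from fits in which 1 group holds a single library. Calls over all tested genes also rose when a miRs library was left out, as given above. The list counts that follow therefore cannot be read as results about the lists. Without 1 library, calls ran from 0 to 5 in the microfibril, oxidase partner, elastase and collagen lists, 0 to 4 in the other fibulins, 0 to 2 in the hydroxylases, 0 to 9 in the TGF-beta list and 0 to 7 in the receptors.

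Some small differences changed sign. With quantile normalization the log2 difference was −0.0091 for PLOD3, 0.015 for COL5A2 and 0.063 for COL1A2. Without 1 library the range was −0.63 to 0.0031 for LOX, −0.40 to 0.017 for LOXL2, −0.042 to 0.36 for FBN1, −0.65 to 0.24 for FBLN1, −0.032 to 0.10 for PLOD3, −0.012 to 0.42 for MMP14, −0.10 to 0.61 for COL5A1, −0.43 to 0.23 for COL5A2 and −0.74 to 0.59 for COL1A2. The cause was not tested. ELN, FBN2, FBLN5 and LOXL1 kept their direction in all 11 alternatives. FBN2's share of fibrillin FPKM differed by −28.1 to −20.1 points without 1 library. Depth is unknown, which limits low genes such as MFAP5.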

Other observations

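Fibrillar collagens, which the lysyl oxidases also cross-link, had 8 tested of 11 genes. Of these, 3 were higher and 0 lower in miRs with groups that did not overlap, against 29.5% and 30.0% of all tested genes, and 0 passed in limma (2 at an unadjusted p under 0.05). The median log2 difference was 0.33, but −0.15 without miRs replicate 2 and 0.77 without miRs replicate 1. COL11A1, a minor chain that nucleates fibrils, stood at 12.6 and 8.53 FPKM in the controls, against 24.7 and 23.2 FPKM with miRs (1.13 in log2, limma adjusted p = 0.0877). COL5A3 was at 4.79 and 5.95 against 8.72 and 9.20 FPKM, and COL27A1 at 4.76 and 5.85 against 6.64 and 10.4 FPKM. COL5A1, at 97.1 and 101 against 92.3 and 152 FPKM, COL5A2, at 183 and 196 against 140 and 222 FPKM, and COL1A2, at 1982 and 2155 against 1240 and 3111 FPKM, had miRs libraries on either side of both controls, replicate 1 below and replicate 2 above. COL1A1 and COL3A1, named after their values were seen, split the same way. They stood at 2337 and 2521 against 1910 and 4742 FPKM and at 348 and 368 against 313 and 659 FPKM. FBLN1 among the members had the same layout.

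Hydroxylases and folding factors of collagen, all 15 genes in the files tested, had a median log2 difference of −0.16. It was −0.069 without control replicate 1, −0.27 without control replicate 2, −0.28 without miRs replicate 1 and −0.029 without miRs replicate 2. With groups that did not overlap 4 were lower and 2 higher, against 30.0% and 29.5% of all tested genes, and 0 passed in limma. At an unadjusted p under 0.05, 1 was higher and 0 lower, against 11.2% and 13.0% of all tested genes. COLGALT1, which adds galactose to hydroxylysine, stood at 76.2 and 70.8 FPKM in the controls, against 111 and 104 FPKM with miRs (0.54 in log2, limma adjusted p = 0.107), and the collagen chaperone SERPINH1 at 489 and 492 against 567 and 763 FPKM. The lysyl hydroxylase PLOD1, at 254 and 201 against 171 and 167 FPKM, P3H3, at 81.9 and 80.3 against 57.4 and 68.2 FPKM, and P4HB, at 614 and 541 against 456 and 461 FPKM, were lower in both miRs libraries. The log2 difference of COLGALT1 ran from 0.49 to 0.60 without 1 library. PLOD3 stayed between 79.8 and 87.2 FPKM in every library.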
